A study of Arabidopsis thaliana with 16 samples.

Results

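AT5G59845, LCR68 (AT2G02130) and PDF2.1 (AT2G02120) are 3 small cysteine-rich peptide genes of Arabidopsis thaliana, out of 13286 genes that the array's name table pairs with a probe set of their own. Each of the 3 has 1 probe set listed for it alone. All 3 passed the filter on dim probe sets, which asked for a log2 value of at least 4 in at least 3 of the 16 arrays and kept 13701 probe sets. The genes were picked because their signals were higher with estradiol in plants that carried only the empty inducible vector, and AT5G59845 also for its change in the silencing lines. Those values are therefore given as descriptions, with no test.

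The study used 2 week-old seedlings in the Col-0 background, whole, grown on hygromycin in continuous light, with 1 Affymetrix ATH1 array per sample. The groups were the amiR-tor lines 9, 17 and 20 with estradiol for 3 days, the same lines without it for 3 days, and both again at 6 days (n = 3 lines each), followed by EV seedlings with estradiol and without it at the same 2 days (1 array each). In amiR-tor plants an estradiol-inducible promoter drives an artificial microRNA against the TOR kinase; EV is the pER8 vector with no insert, and estradiol was given at 20 µM. The 3 lines were the replicates, and the labels do not tell whether their seedlings were cultured apart, so a p-value measures the spread between lines, which may be technical. By the sample titles, every estradiol sample of EV had the inducer and the vector with no microRNA. EV is thus the measure of the inducer together with the vector, and it rests on 1 pair of arrays a day. The series held no plants without the vector, so the inducer by itself cannot be told apart from its action through the vector. The labels are not free of conflict: the series title names another gene, and a tag of the EV samples mentions an artificial microRNA. Groups follow the sample titles, and no probe set was listed for TOR, so silencing itself was not checked here.

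AT5G59845 belongs to the GASA family of gibberellin-regulated peptides, secreted proteins whose cysteine-rich end is held together by disulphide bonds, with family members that act in growth, flowering and stress responses. LCR68 (also named PDF2.3) and PDF2.1 (also named LCR70) are plant defensins, a family of secreted disulphide-bonded peptides known for antifungal activity in several plant species. In the pER8 system estradiol activates a chimeric transcription factor carried by the vector, which then turns on the inserted sequence; plants have no estrogen receptor of the animal kind. In the RefSeq gene table of TAIR10.1, PDF2.1 and LCR68 are neighbours on chromosome 2 with 0 genes listed between them, and another defensin gene, LCR69 (AT2G02100, also named PDF2.2), lies close by in the same cluster. Probe sets of such related genes can share target sequence, and cross-hybridisation between them was not tested.

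The arrays fell into 2 kinds by a control probe set for 25S ribosomal RNA, at log2 values of 5.27 to 6.66 on 6 arrays and 11.38 to 11.99 on the other 10. For an actin control, the 5′ probe set lay below the 3′ probe set, with differences of -7.44 to -6.6 on the 6 arrays and of -5.58 to -5.02 on the 10. Low 25S signal marked line 9 with estradiol on both days, and lines 17 and 20 at 3 days whatever the treatment. Each estradiol pair of lines 17 and 20 and of EV therefore lay within 1 kind, whereas in line 9 estradiol and the kind of array cannot be told apart. The green leaf markers LHCB4.2 and LHCB4.1, light-harvesting proteins, had a mean level of 13.39 to 14.18 on all arrays. That goes with green tissue and cannot tell whole seedlings from leaves. Of 9 such markers 2 had a probe set in the name table. Of 11 root markers 3 had one, with a mean level of 7.4 to 9.06 in the estradiol arrays of the lines at 6 days and of 7.93 to 8.6 elsewhere. Their own means over all arrays ran from 5.55 (EXPA7) to 13.47 (PYK10). In whole seedlings fewer cells of a type and less RNA per cell cannot be told apart.

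AT5G59845 was higher with estradiol in all 8 pairs of arrays, EV included. In EV its level was 8.39 with estradiol and 6.09 without at 3 days, and 8.56 with estradiol and 5.37 without at 6 days (log2 values). The differences of 2.3 and 3.19 are 4.92-fold and 9.13-fold. At each day this was the highest EV difference among the 13701 kept probe sets, and AT5G59845 was the only one of them (0.0073%) past 2 log2 units at both days. Those EV values chose the gene, so the ranks describe it and test nothing. Over both days 0 probe sets (0%) were called in EV by limma, and 111 (0.81%) had an unadjusted p under 0.05.

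In the amiR-tor lines at 3 days AT5G59845 stood at 10.52 in line 9, 7.65 in line 17 and 11.41 in line 20 with estradiol, against 5.53, 5.77 and 6.39 in the same lines without it. The 2 groups did not overlap at 3 days, as was so for 12.5% of kept probe sets on the higher side. At 6 days it stood at 9.46 in line 9, 6.07 in line 17 and 8.54 in line 20 with estradiol, against 5.36, 5.92 and 6.19 without. Lines 9 and 20 were high at both days, while line 17 with estradiol at 6 days lay inside the range of the arrays without it.

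By pair the difference of AT5G59845 was 4.99 in line 9, 1.88 in line 17 and 5.02 in line 20 at 3 days. At 6 days it was 4.1 in line 9, 0.15 in line 17 and 2.35 in line 20. Beside the 2.3 and 3.19 of EV, both values of line 9 and the 3 day value of line 20 were larger, and both values of line 17 and the 6 day value of line 20 were smaller. Among all kept probe sets these values ranked 1, 60 and 1 from the top in lines 9, 17 and 20 at 3 days, and 17, 5033 and 18 at 6 days, as a description of values that chose the gene.

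**Figure D1:**
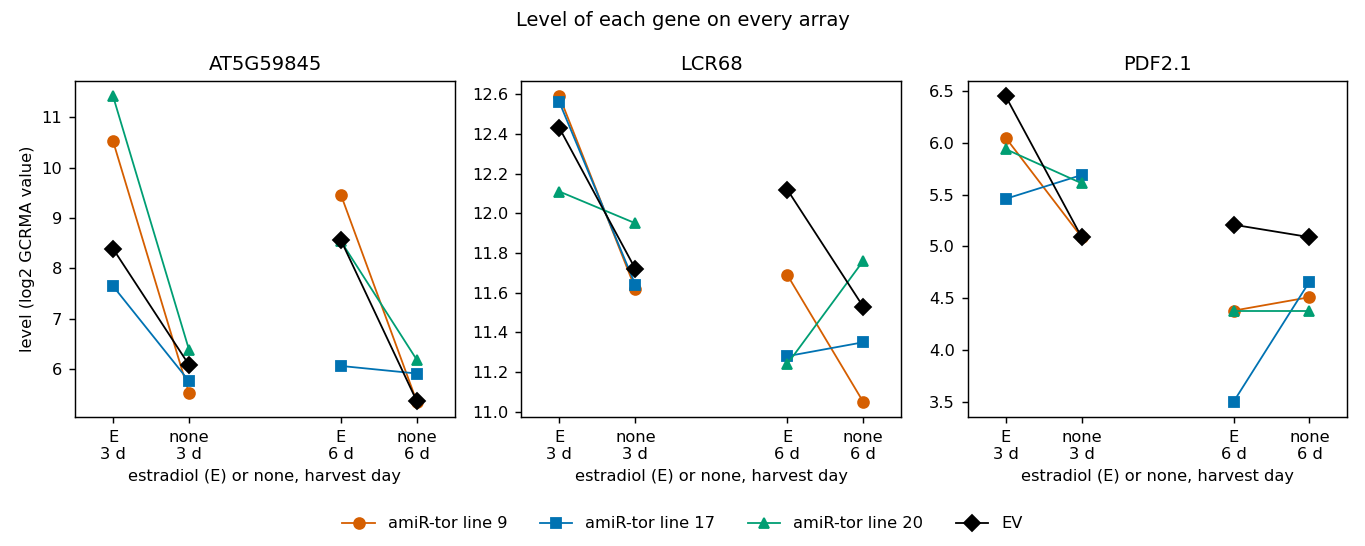
Level (log2 GCRMA value, one scale per gene) of AT5G59845, LCR68 and PDF2.1 on each of the 16 arrays, by treatment (E, estradiol, left; none, right) and harvest day; a line joins the 2 arrays of one line or of EV. AT5G59845 is higher with estradiol in all 8 pairs, by 0.15 (line 17, 6 days) to 5.02 (line 20, 3 days), while PDF2.1 is lower at 6 than at 3 days in all 6 comparisons within the lines.

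Averaged over both days, AT5G59845 differed by 3.08 ± 0.68 (SE) in the lines and by 2.75 ± 1.17 (SE) in EV. The difference between these was 0.34 ± 1.35 (SE), with a 95% interval of -2.64 to 3.32. A change in the lines several-fold above or below that in EV lies inside this interval. In that comparison 1 probe set (0.0073%) passed in limma, and 418 (3.05%) had an unadjusted p under 0.05. Its sign turned without line 9 (-0.40 ± 1.55) and with the kind of array as a covariate (-0.11 ± 1.32), and without line 17 the value was 1.37 ± 0.63 (SE). The SE of EV is borrowed from the spread among the lines, because EV has 1 array per condition. The fit took the same spread for all groups. For this gene the SD between lines was 1.96 and 1.75 with estradiol at 3 and 6 days, and 0.44 and 0.42 without. The interval therefore does not measure how EV itself varies.

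The order of the 8 condition levels of AT5G59845 put all 4 estradiol conditions first: the lines at 3 days (9.86 ± 1.96, SD, n = 3), EV at 6 days (8.56), EV at 3 days (8.39) and the lines at 6 days (8.02 ± 1.75, SD, n = 3). Neighbours among these 4 differed by less than the spread between lines. Without estradiol the order was EV at 3 days (6.09), the lines at 3 days (5.9 ± 0.44, SD, n = 3), the lines at 6 days (5.82 ± 0.42, SD, n = 3) and EV at 6 days (5.37). EV at 6 days lay within the range of the lines at that day (5.36 to 6.19). The SD between lines was 1.75 or more with estradiol and 0.44 or less without it.

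Of all kept probe sets, 661 (4.82%) were higher with estradiol in all 8 pairs. AT5G59845 had the largest mean change among them, 3.0 on the log2 scale, with 2.6 for the next and a median of 0.42. The set was chosen by sign after the values were seen and is a description.

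**Figure D2:**
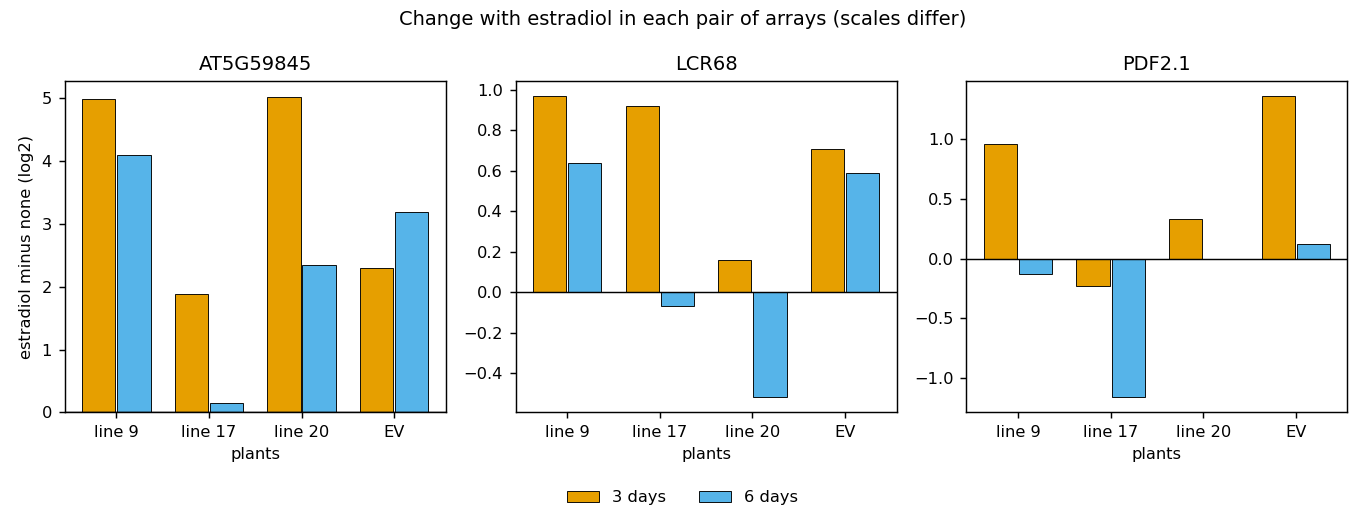
Difference in log2 level, estradiol minus none, for each pair of arrays in amiR-tor lines 9, 17 and 20 and in EV, at 3 and 6 days; each bar is 1 pair, with no error, and the scales of the 3 genes differ. AT5G59845 is above 0 in every pair, LCR68 in 6 of 8 and PDF2.1 in 4 of 8, where line 20 at 6 days is exactly 0.

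LCR68 changed with estradiol far less than AT5G59845. In the lines LCR68 differed more at 3 days than at 6 days, without passing the test at either day or between the days. In EV its level was 12.43 with estradiol and 11.72 without at 3 days, and 12.12 with estradiol and 11.53 without at 6 days. These differences of 0.71 and 0.59, or 1.64-fold and 1.51-fold, are the values that chose the gene. Both EV pairs were higher, as for 30.4% of kept probe sets.

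In the lines at 3 days LCR68 was at 12.59 in line 9, 12.56 in line 17 and 12.11 in line 20 with estradiol, against 11.62, 11.64 and 11.95 without. All 3 lines were higher with estradiol and the groups did not overlap, as for 12.5% of kept probe sets on the higher side. At 6 days the levels were 11.69, 11.28 and 11.24 in lines 9, 17 and 20 with estradiol, against 11.05, 11.35 and 11.76 without, so line 9 was higher, line 20 lower and line 17 nearly level.

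The EV arrays were not used in the test of LCR68 in the lines. The difference was 0.68 ± 0.22 (SE) at 3 days (limma, Benjamini-Hochberg adjusted p = 0.353 over all kept probe sets) and 0.02 ± 0.22 (SE) at 6 days (limma adjusted p = 0.982), with 95% intervals of 0.20 to 1.17 and -0.47 to 0.50. At 3 days 0 of the 13701 probe sets passed (0%), with 1782 (13%) at an unadjusted p under 0.05, LCR68 among them. Over both days it was 0.35 ± 0.15 (SE; limma adjusted p = 0.182), with 0.12 ± 0.16 without line 9 and 0.615 ± 0.15 without line 20 (SE; limma adjusted p = 0.721 and 0.0771). Over both days 390 probe sets (2.85%) passed, 304 of them higher (2.22%) and 86 lower (0.628%). That number came to 6 when line 9 was left out, to 1 when line 17 was, and to 61 with the kind of array as a covariate. At 6 days the sign of the difference turned without line 9 (-0.295 ± 0.22) and with the kind of array as a covariate (-0.08 ± 0.22, SE).

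Set against EV, the change of LCR68 over both days in the lines differed by -0.3 ± 0.31 (SE), with a 95% interval of -0.98 to 0.38. The value was -0.53 ± 0.27 without line 9 and -0.04 ± 0.26 without line 20 (SE). In each line the change minus that of EV was 0.26 (line 9), 0.21 (line 17) and -0.55 (line 20) at 3 days. At 6 days it was 0.05 (line 9), -0.66 (line 17) and -1.11 (line 20). Line 20 was thus below EV at both days, and line 17 at 6 days only, with the EV values chosen for being high. The pairs of both lines lay within 1 kind of array, but at 3 days that was not the kind of the EV arrays.

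PDF2.1 was higher with estradiol in EV at 3 days, and its difference in the lines did not pass the test at either day. In EV it was at 6.45 with estradiol and 5.09 without at 3 days, and at 5.21 with estradiol and 5.09 without at 6 days. The 3 day difference of 1.36, or 2.57-fold, was the seventh highest among all kept probe sets, whereas that of 6 days was 0.12, with 62.9% of kept probe sets below it. The EV value that chose PDF2.1 is therefore mostly that of 1 pair of arrays.

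In the lines at 3 days PDF2.1 was at 6.05 in line 9, 5.46 in line 17 and 5.94 in line 20 with estradiol, against 5.09, 5.69 and 5.61 without. At 6 days it was at 4.38 in line 9, 3.5 in line 17 and 4.38 in line 20 with estradiol, against 4.51, 4.66 and 4.38 without. Lines and treatments overlapped at 3 days, and at 6 days line 17 with estradiol stood lowest, under the log2 value of 4 that defined a dim probe set. Differences at levels this near the background can be understated or otherwise distorted, which was not tested.

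The test of PDF2.1 in the lines gave 0.35 ± 0.27 (SE) at 3 days (limma adjusted p = 0.535) and -0.43 ± 0.27 (SE) at 6 days (limma adjusted p = 0.482), where 63 probe sets (0.46%) passed, or 9 without line 9, 1 without line 17 and 30 with the kind of array as a covariate. Without line 9 the 3 day value was 0.05 ± 0.31, and without line 17 the values were 0.645 ± 0.24 at 3 days and -0.07 ± 0.24 at 6 days (SE). Without line 20 the 6 day value was -0.645 ± 0.37 (SE). Over both days it gave -0.04 ± 0.19 (SE; limma adjusted p = 0.914), with a 95% interval of -0.45 to 0.38, and the value was 0.29 ± 0.17 without line 17. The change in the lines minus that in EV over both days was -0.78 ± 0.38 (SE), with a 95% interval of -1.61 to 0.05, and -0.45 ± 0.29 without line 17. By line it was -0.4 (line 9), -1.59 (line 17) and -1.03 (line 20) at 3 days, and -0.25 (line 9), -1.28 (line 17) and -0.12 (line 20) at 6 days. All 6 pairs of the lines lay below the EV pair of the same day, with the EV values chosen for being high.

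**Figure D3:**
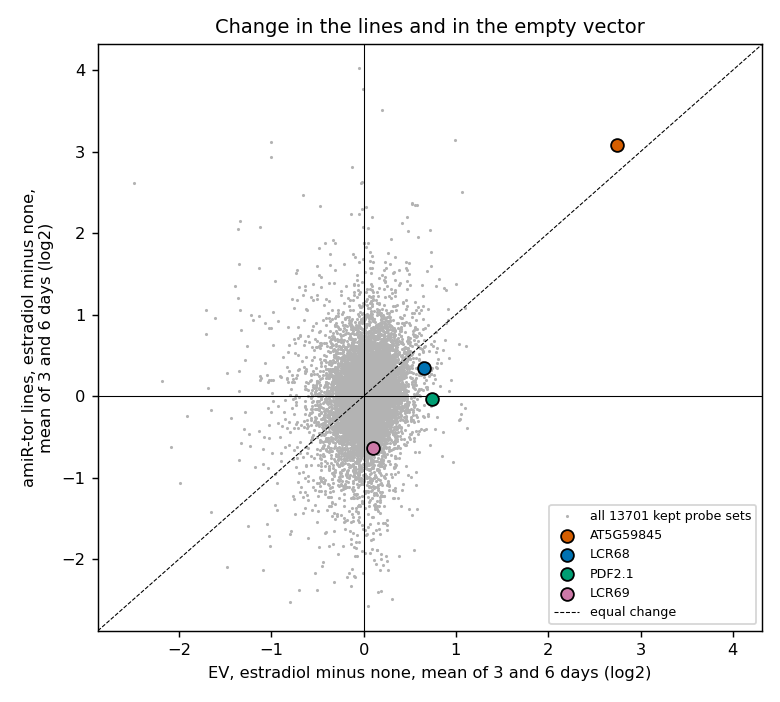
Change with estradiol averaged over 3 and 6 days (log2), in the amiR-tor lines (vertical axis, 3 lines) and in EV (horizontal axis, 1 pair a day), for each of the 13701 kept probe sets in grey; the dashed line marks equal change. AT5G59845 lies far out at 3.08 in the lines and 2.75 in EV, near the dashed line, while LCR68 (0.35 and 0.65) and PDF2.1 (-0.04 and 0.74) lie below it.

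Whether the change with estradiol differed between days or lines was tested for all 3 genes, since neither difference was used to choose them. The change at 6 days minus that at 3 days was -1.76 ± 1.35 (SE) for AT5G59845, -0.67 ± 0.31 for LCR68 and -0.78 ± 0.38 for PDF2.1 in the lines (limma adjusted p = 1 for each). Limma called 0 probe sets (0%) here; 234 (1.71%) had an unadjusted p under 0.05, with none of the 3 genes among them. In EV the same differences were 0.89 for AT5G59845, -0.12 for LCR68 and -1.24 for PDF2.1, from 1 array per condition.

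Averaged over the days, the change of AT5G59845 was 4.545 in line 9, 1.015 in line 17 and 3.685 in line 20, beside 2.745 in EV. For LCR68 it was 0.805 in line 9, 0.425 in line 17 and -0.18 in line 20, beside 0.65 in EV, and for PDF2.1 it was 0.415, -0.695 and 0.165 in lines 9, 17 and 20, beside 0.74 in EV. The 3 genes did not rank the lines alike: line 17 was lowest for AT5G59845 and PDF2.1 and line 20 for LCR68, while line 9 was highest for all 3. In line 9 estradiol and the kind of array cannot be told apart. The F test of a difference between lines, with the days as repeats, gave limma adjusted p = 0.144 for AT5G59845, 0.311 for LCR68 and 0.305 for PDF2.1. By this test limma called 0 probe sets (0%), and 2722 (19.9%) had an unadjusted p under 0.05, among them AT5G59845 at 0.0124. For AT5G59845 the same F test gave limma adjusted p = 0.378 with the kind of array as a covariate, and 0.829 without line 9.

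PDF2.1 fell between 3 and 6 days in the lines, the 1 difference of the 3 genes that passed a test. Its level at 6 days minus that at 3 days was -1.67 in line 9, -1.96 in line 17 and -1.56 in line 20 with estradiol, and -0.58, -1.03 and -1.23 without. The 6 arrays of 6 days lay between 3.5 and 4.66 and those of 3 days between 5.09 and 6.05, with no overlap, as for 1.31% of kept probe sets on the lower side. The mean difference was -1.34 ± 0.19 (SE; limma, Benjamini-Hochberg adjusted p = 0.0241), where 113 probe sets (0.825%) passed, 67 of them lower (0.489%), or 185 with the line as a block, in which PDF2.1 had limma adjusted p = 0.0364. With no filter on dim probe sets PDF2.1 no longer passed (limma adjusted p = 0.0643).

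In lines 17 and 20 the day went with the kind of array, whereas both differences of line 9 and of EV lay within 1 kind. Within a kind the difference was thus -1.67 with estradiol and -0.58 without in line 9, and -1.24 with estradiol and 0 without in EV. With the kind of array as a covariate the value was -1.0 ± 0.23 (SE) and no longer past the threshold (limma adjusted p = 0.227). Without line 17 the value was -1.26 ± 0.17 (SE; limma adjusted p = 0.792) and without line 20 it was -1.31 ± 0.26 (SE; limma adjusted p = 0.148), in fits that called 0 probe sets each.

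For LCR68 the day difference was -0.68 ± 0.15 (SE; limma adjusted p = 0.0608), negative in all 6 comparisons, from -1.28 to -0.19. Without line 9 it passed, at -0.66 ± 0.16 (SE; limma adjusted p = 0.0369), in a fit that called 2226 probe sets and held lines in which the day went with the kind of array. In EV it was -0.31 with estradiol and -0.19 without. For AT5G59845 the day difference was -0.96 ± 0.68 (SE; limma adjusted p = 0.399), and -0.05 ± 0.91 with the kind of array as a covariate (SE; limma adjusted p = 0.994). With estradiol its level at 6 days minus that at 3 days was -1.06, -1.58 and -2.87 in lines 9, 17 and 20, against 0.17 in EV, and without estradiol it differed by -0.2 to 0.15 in the lines and -0.72 in EV.

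By kind of array, AT5G59845 lay between 5.77 and 11.41 on the 6 arrays with low 25S signal and between 5.36 and 8.56 on the other 10. LCR68 lay between 11.64 and 12.59 on the 6 arrays and between 11.05 and 12.43 on the 10, and PDF2.1 between 4.38 and 6.05 on the 6 and between 3.5 and 6.45 on the 10. The ranges overlapped for each gene, but the median of the 6 low arrays was above that of the 10 for all 3, at 8.555 and 6.08 for AT5G59845, 12.03 and 11.575 for LCR68, and 5.65 and 4.875 for PDF2.1. The pairs of lines 17 and 20 for AT5G59845 differed by 1.88 and 5.02 within the low kind at 3 days, and by 0.15 and 2.35 within the high kind at 6 days. The part of the kind of array in these levels was not tested.

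The neighbours and relatives of the 3 genes are given next, with no test of their difference from AT5G59845. LCR69, in the same cluster as PDF2.1 and LCR68, differed with estradiol by -1.12 to -0.19 in the pairs of the lines, and by -0.01 and 0.21 in EV. Over both days its value was -0.64 ± 0.22 (SE; limma adjusted p = 0.117), not past the threshold. Over the 16 arrays the level of LCR68 correlated with that of PDF2.1 at Pearson r = 0.76 and with that of LCR69 at r = 0.2, and that of PDF2.1 with LCR69 at r = 0.62. These arrays share their day, treatment and kind, and the correlations are descriptions. LCR72 (AT2G02140), another defensin gene of the cluster, was at the floor of 2.12 on all arrays.

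Of 14 GASA genes listed, 6 had a probe set of their own in the name table and 3 were kept, AT5G59845 among them. The name table gives no gene for 8730 of 22746 gene probe sets. Family members without an entry may therefore be on the array and were not looked at, here and in the lists below. The other 2, AT2G14900 and AT1G22690, had values of 0.46 ± 0.24 and 0.34 ± 0.20 (SE; limma adjusted p = 0.253 and 0.296) over both days in the lines. For AT2G14900 line 9 differed by 1.06 and 1.79, and lines 17 and 20 by -0.13 to 0.11. In EV AT2G14900 differed by 0.24 and -0.14 and AT1G22690 by 0.3 and 0.48, beside 2.3 and 3.19 for AT5G59845. AT2G39540, AT2G18420 and AT2G30810 stayed dim.

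Of 15 plant defensin genes listed, 12 had a probe set in the name table and 7 were kept, LCR68 and PDF2.1 among them. None of the 7 passed in the lines over both days in limma, where 2.85% of kept probe sets did. Their median was 0.22, against 0.03 over all kept probe sets. PDF2.5 (AT5G63660) came nearest, with a value of 1.07 ± 0.32 (SE, limma adjusted p = 0.0849). Its differences ran from 0.01 to 2.31 in the pairs of the lines and were 0.37 and 1.02 in EV. Without line 9, whose pairs span the 2 kinds of array, the value was 0.50 ± 0.27 (SE). The plot of the 3 peptide families shows these values by pair.

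**Figure D4:**
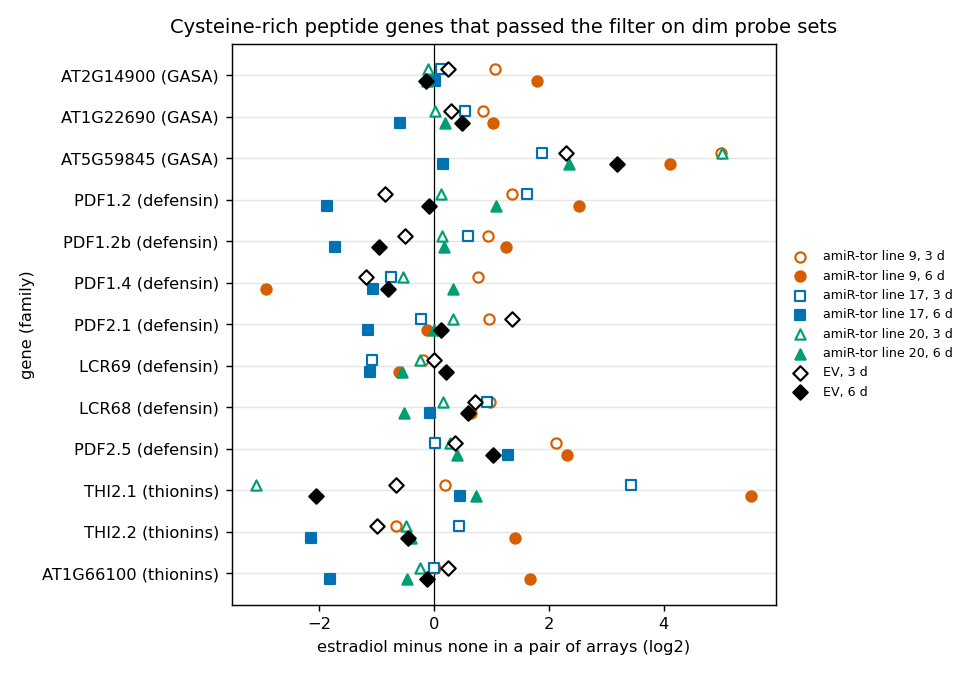
Difference in log2 level, estradiol minus none, for each pair of arrays (open symbols, 3 days; filled, 6 days) of the GASA, defensin and thionin genes that passed the filter on dim probe sets; no error is drawn, since each symbol is 1 pair. Among these 13 genes AT5G59845 alone lies above 2 in both EV pairs, and LCR69 lies between -1.12 and -0.19 in the pairs of the lines.

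Genes of the gibberellin pathway, from which the GASA family takes its name, were listed too: 4 of 18 had a probe set in the name table and all 4 were kept. GID1C (AT5G27320), a gibberellin receptor, fell in the lines by 0.93 ± 0.22 over both days (SE; limma adjusted p = 0.0475), and the other 3 did not pass. The call of GID1C was lost with the line as a block (limma adjusted p = 0.0573), with no filter, with the kind of array as a covariate (-0.72 ± 0.20, SE) and without any 1 of the 3 lines, among which the value without line 9 was -0.51 ± 0.12 (SE). The receptors GID1A and GID1B had values of -0.98 ± 0.46 and 0.12 ± 0.19, and SLY1, an F-box protein that marks the DELLA repressors for removal, of 0.32 ± 0.15 (SE; limma adjusted p = 0.2, 0.718 and 0.191). In EV the 4 differed by -0.44 to 0.39. For GID1C that was 0.08 at 3 days and -0.44 at 6 days, beside 2.3 and 3.19 for AT5G59845.

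Genes that respond to foreign chemicals formed another list, of which 4 of 14 had a probe set in the name table and were kept. They were the glutathione transferase GSTU25, the glycosyltransferases UGT73B5 and UGT73B4, and AT2G04050, a transporter of the MATE family. None passed over both days in limma. UGT73B4 had a value of 1.42 ± 0.38 and AT2G04050 of 1.45 ± 0.37 (SE, limma adjusted p = 0.0659 and 0.0597, or 0.0426 and 0.0262 with the line as a block). Over the pairs of the lines the differences of the 4 ran from 0.08 to 2.35. In EV the median of the 4 was 0.58 at 3 days and -0.12 at 6 days, beside 2.3 and 3.19 for AT5G59845. No gene of the lipid transfer, brassinosteroid or floral lists had a named probe set.

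The search for genes that followed the 3 genes took only kept probe sets listed with 1 gene that has a symbol. Other kept probe sets had a higher correlation with each of the 3. Within that search, the genes whose levels followed most closely were found by Pearson correlation over the 16 arrays. For AT5G59845 they were scpl48 (AT3G45010, a carboxypeptidase-like gene, r = 0.84), ALDH3F1 (AT4G36250, an aldehyde dehydrogenase, r = 0.8) and bHLH115 (AT1G51070, r = 0.78). Both scpl48 and bHLH115 were higher with estradiol in all 8 pairs, as for 4.82% of kept probe sets. The differences were 0.49 to 2.04 for scpl48, with 0.64 and 0.49 in EV, and 0.15 to 0.77 for bHLH115, with 0.15 and 0.22 in EV. ALDH3F1 was lower only in line 17 at 6 days (-0.1). All were picked for following AT5G59845 over the same arrays, so a shared sign is a description. For LCR68 they were CRR42 (AT5G20935, r = 0.87), RALFL24 (AT3G23805, of the RALF peptide family, r = 0.85) and GH9B7 (AT1G75680, a glycosyl hydrolase, r = 0.84), whose 3 day differences in EV were 0.25, -0.01 and 0.09. For PDF2.1 they were NDB1 (AT4G28220, an NAD(P)H dehydrogenase, r = 0.82), UBC22 (AT5G05080, a ubiquitin-conjugating enzyme, r = 0.81) and TBL45 (AT2G30010, r = 0.81), with 3 day differences in EV of 0.25, 0.09 and -0.09.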

How the data were processed

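The submitters' processing notes name GCRMA for the deposited log2 values; no version, setting or genome build is given in the sources used here. GCRMA subtracts background, scales the arrays to each other and gives 1 value per probe set. The values run from 2.12 to 15.32 over 22810 probe sets. Precision is limited by the number of arrays. Left out were 64 control and 9045 dim probe sets. Of 22746 gene probe sets, 13513 were listed with 1 gene, 503 with several and 8730 with none in the name table used here; symbols were updated through RefSeq (TAIR10.1).

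Tests used limma 3.58.1 (R 4.3.3; lmFit, eBayes) with 1 mean per group over the 16 arrays, 8 residual degrees of freedom, and Benjamini-Hochberg adjustment over the kept probe sets at 0.05. EV arrays were assumed to vary like the others. The line test used the 12 amiR-tor arrays with day as a term. The code was tested on simulated data. Each line, by its label, has arrays with and without estradiol on both days, so lines pair the arrays; their deviations from group means correlated between -0.23 and 0.23. No 2 arrays looked like copies (highest correlation 0.997, at most 4.24% identical values above log2 4).

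The members and gene lists were chosen with earlier results of these data known. Named were the 3 members, the 3 symbols most correlated with each, all kept GASA, defensin and thionin genes, and in other lists up to 4 past the threshold or 2 with the smallest p; the other gibberellin and foreign-chemical genes are named outside that rule, after their values were seen. Alternatives were no filter, a filter at log2 6, quantile normalization, a trended robust prior, the line as a block, the 25S class as a covariate and each line left out.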

Additional observations from a re-analysis of the deposited data

How the results depend on the processing

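Over both days the change of AT5G59845 in the lines ran from 2.35 without line 9 to 4.115 without line 17 under the alternatives run. In EV the values were 2.745 for AT5G59845, 0.65 for LCR68 and 0.74 for PDF2.1. With quantile normalization they were 2.72, 0.67 and 0.72. The other alternatives cannot move an EV value, because each EV condition is 1 array with a mean of its own. How stable the EV values are was therefore not tested. PDF2.1 was left out by the filter at log2 6, and the line difference has no fit with the line as a block. With the line as a replicate block no tested call of the 3 genes changed; the change in the lines minus that in EV had 0 calls (1 without the block) and the day difference 185. For leaving out 1 line the values ran from -0.265 to 0.29 for PDF2.1 in the lines over both days, from -0.295 to 0.285 for LCR68 at 6 days (-0.0842 with the 25S covariate), from -1.0 to -0.45 for PDF2.1 in the lines minus EV, from -1.445 to -1.26 for the day difference of PDF2.1 and from -0.76 to -0.63 for that of LCR68. The day difference of PDF2.1 lost its call with no filter (-1.34, limma adjusted p = 0.0643) and with the 25S covariate (-1.0). Counts of calls with 1 line left out ran from 1 to 379 in the lines over both days, from 1 to 55 at 6 days, from 0 to 2226 for the day difference and from 0 to 2 for the line difference, and were 0 for the lines minus EV. With no filter the counts were 88 in the lines over both days, 4 at 3 days, 8 at 6 days, 297 in EV over both days, 274 for the lines minus EV, 29 for the day difference and 33 for the line difference. With the 25S covariate they were 61 over both days, 30 at 6 days, 0 for the lines minus EV, 1 for the day difference and 11 for the line difference. At 3 days the filter at log2 6 and the trended robust prior gave 1 call each. The cause of these moves was not tested.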

Other observations

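Defensins of the PDF1 class and the thionins are peptide families linked to jasmonate and defence, and none of their kept genes passed in limma over both days, where 2.85% of kept probe sets did. PDF1.2 (AT5G44420) differed by 1.36, 1.61 and 0.11 in lines 9, 17 and 20 at 3 days and by 2.53, -1.87 and 1.07 at 6 days, and by -0.85 and -0.1 in EV. PDF1.4 (AT1G19610) differed by -1.19 and -0.8 in the EV pairs, opposite to PDF2.1, LCR68 and PDF2.5 (0.37 and 1.02). PDF1.2b was lower in both EV pairs too (-0.51 and -0.96), and LCR69 differed there by -0.01 and 0.21. THI2.1 (AT1G72260), a thionin, ranged from -3.1 in line 20 at 3 days to 5.52 in line 9 at 6 days, against -0.66 and -2.06 in EV. THI2.2 and AT1G66100, the other thionins, had values over both days of -0.31 ± 0.39 and -0.15 ± 0.37 (SE; limma adjusted p = 0.626 and 0.827). In PDF1.2b (AT2G26020), whose probe set carries the array maker's mark for possible cross-hybridisation, line 17 at 6 days again stood low, at -1.73.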
